A study of Rattus norvegicus with 23 samples.

Results

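Autotaxin and the receptors for lysophosphatidic acid and sphingosine 1-phosphate were followed as a family of signalling genes in oligodendroglia. The family was given as 8 gene symbols, and 7 of them are among the 14690 identifiers that the authors' deposited tables name. These are Enpp2 (ENSRNOG00000004089), Lpar1 (ENSRNOG00000013656), Lpar3 (ENSRNOG00000015260), S1pr1 (ENSRNOG00000013683), S1pr2 (ENSRNOG00000020653), S1pr3 (ENSRNOG00000014524) and S1pr5 (ENSRNOG00000020901), each with 1 identifier. Lpar4 is not analysed here. Of the 7 genes, 6 are listed in the count files of all 23 libraries, which share 15219 genes. Lpar3 is listed only in the files of the 12 differentiating CG4 libraries, so its level is known in 3 of the 6 groups.

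The study compared CG4 cells, a line immortalized from rat brain oligodendroglia, with primary rat oligodendroglia, by RNA sequencing of total RNA extracts. CG4 cells were transduced with an EGFP vector alone (the control), with the same kind of vector carrying myc-tagged Zfp488, or with Nkx2.2, and were then differentiated for 3 days, with 4 libraries for each. Differentiation meant a change to SATO medium with T3, T4 and CNTF. Proliferating CG4 cells were wild type, carried no vector and gave 3 libraries. Primary cells were shaken off mixed glial cultures and gave 4 proliferating libraries, kept in bFGF and PDGF-AA like the proliferating CG4 cells, and 4 libraries after 3 days of differentiation, with no vector. Reads were 150 nt long, except 100 nt in proliferating CG4 cells. By their names the vectors carry a CAG promoter, so the factors' levels are those of forced expression in 1 cell line. The CG4 comparison of differentiating with proliferating cells also compares a vector with none, 2 read lengths and 2 gene lists, which cannot be told apart from differentiation.

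Autotaxin, the product of Enpp2, is a secreted lysophospholipase D that makes lysophosphatidic acid (LPA) from lysophosphatidylcholine outside cells. LPA acts through G protein-coupled receptors, among them Lpar1 and Lpar3. Sphingosine 1-phosphate (S1P) is made inside cells by sphingosine kinases, is exported, and acts on the S1pr receptors. S1pr1 signals through inhibitory G proteins, and S1pr3 and S1pr5 through several kinds. In the brain, autotaxin, Lpar1 and S1pr5 are known as genes of the oligodendrocyte lineage, and S1pr1 and S1pr3 are also expressed by astrocytes and endothelial cells.

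Libraries held 20063345 to 49206479 counts. Zfp488 lay at 130 to 199.99 CPM in its own libraries and 33.7 to 59.0 in control, and Nkx2-2 at 1282 to 1990 CPM in the Nkx2.2 libraries and 211 to 299 in control, which matches the labels of both factors. Nkx2-2 lay at 91.5 to 175 CPM in the Zfp488 libraries, below control, so comparing the factors also sets lowered against raised Nkx2-2. Zfp488 lay at 25.1 to 49.3 CPM in the Nkx2.2 libraries. CPM are read counts divided by the library's total in megareads, scaled by edgeR's TMM factors over the genes that all files list. The progenitor markers Olig1, Olig2 and Sox10 were present in all groups, whereas Cspg4 lay at 93.8 to 110 CPM in primary cells and at 1.02 to 8.44 in CG4 cells. Among other cell types, summed microglia markers (2 of 9 measured, Csf1r and P2ry12) lay at 355 to 371 CPM in proliferating and 13.1 to 17.2 CPM in differentiating primary cells, and at most 6.20 CPM in CG4 libraries. Libraries 1 and 2 of differentiating primary cells resembled each other (chi-square over degrees of freedom of 8.16), as did 3 and 4 (1.74), with 28.1 to 35.5 across these pairs. What a pair has in common is not stated in the labels, and all libraries differed by more than counting noise. The 3 proliferating CG4 libraries differed most from one another (146 to 254). Since these are bulk samples, fewer cells of a type and less RNA per cell cannot be told apart.

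S1pr5 and S1pr2 are shown with the 250 bases before their starts because their levels moved in opposite directions in both differentiation comparisons. Both lie on rat chromosome 8 on the minus strand, with 11 protein-coding genes between them, in RefSeq's annotation of GRCr8. The windows are chr8:28067870-28068119 for S1pr5 and chr8:27790345-27790594 for S1pr2. Capitals mark matches, on either strand, to AAGTG (the core of NK2 homeodomain sites), CTGGNAC (a core of Myrf sites), ACAANG (the core of SoxE sites) or CAGNTG (an E-box), and no matches overlap in these windows.
S1pr5: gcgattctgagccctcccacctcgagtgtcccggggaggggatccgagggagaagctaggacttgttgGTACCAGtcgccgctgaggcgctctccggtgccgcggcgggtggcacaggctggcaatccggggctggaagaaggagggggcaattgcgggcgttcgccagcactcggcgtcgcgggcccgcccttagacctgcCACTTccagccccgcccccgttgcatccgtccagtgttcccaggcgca
S1pr2: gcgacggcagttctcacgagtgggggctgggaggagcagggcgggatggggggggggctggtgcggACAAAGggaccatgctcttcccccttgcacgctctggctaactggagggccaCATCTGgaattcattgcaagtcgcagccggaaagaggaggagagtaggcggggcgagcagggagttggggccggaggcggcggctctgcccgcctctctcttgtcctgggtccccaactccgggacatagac
The S1pr5 window holds 1 match to CTGGNAC, starting at base -182 from the gene's start, and 1 to AAGTG at -48. The S1pr2 window holds neither, but has 1 match to ACAANG at -184 and 1 to CAGNTG at -132. Among 33469 windows of the same length in the RefSeq table, 40.6% hold AAGTG, 14.8% CTGGNAC, 36.9% ACAANG and 43.3% CAGNTG. Both windows are rich in G and C, with 69.2% in S1pr5 and 66.4% in S1pr2 against a median of 51.2% over all windows. Windows were also found for Lpar3, S1pr1 and S1pr3. That of Lpar3 lies inside the span of its own gene and is not shown. These matches are letters in a window, with no measured binding.

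Enpp2 was expressed in every group. In proliferating primary cells it lay at 41.9, 43.5, 43.7 and 37.5 CPM, and in differentiating primary cells at 415, 442, 528 and 541 CPM, so these groups lie apart. Proliferating CG4 cells spread most, with 298, 36.4 and 452 CPM in libraries 1 to 3, a range of 12.4 times. Library 2 reached the level of proliferating primary cells, while libraries 1 and 3 lay nearer to the differentiating groups. In differentiating CG4 cells Enpp2 stood at 712, 545, 597 and 648 CPM in control, 606, 445, 497 and 383 with Zfp488, and 882, 784, 598 and 904 with Nkx2.2. By mean, the order was Nkx2.2 (792 ± 139 CPM, SD, n = 4), control (626 ± 71.2, n = 4), Zfp488 (483 ± 94.7, n = 4), differentiating primary (482 ± 62.7, n = 4), proliferating CG4 (262 ± 210, n = 3) and proliferating primary cells (41.7 ± 2.89, n = 4). The ranges of all neighbours in this order overlapped.

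**Figure D1:**
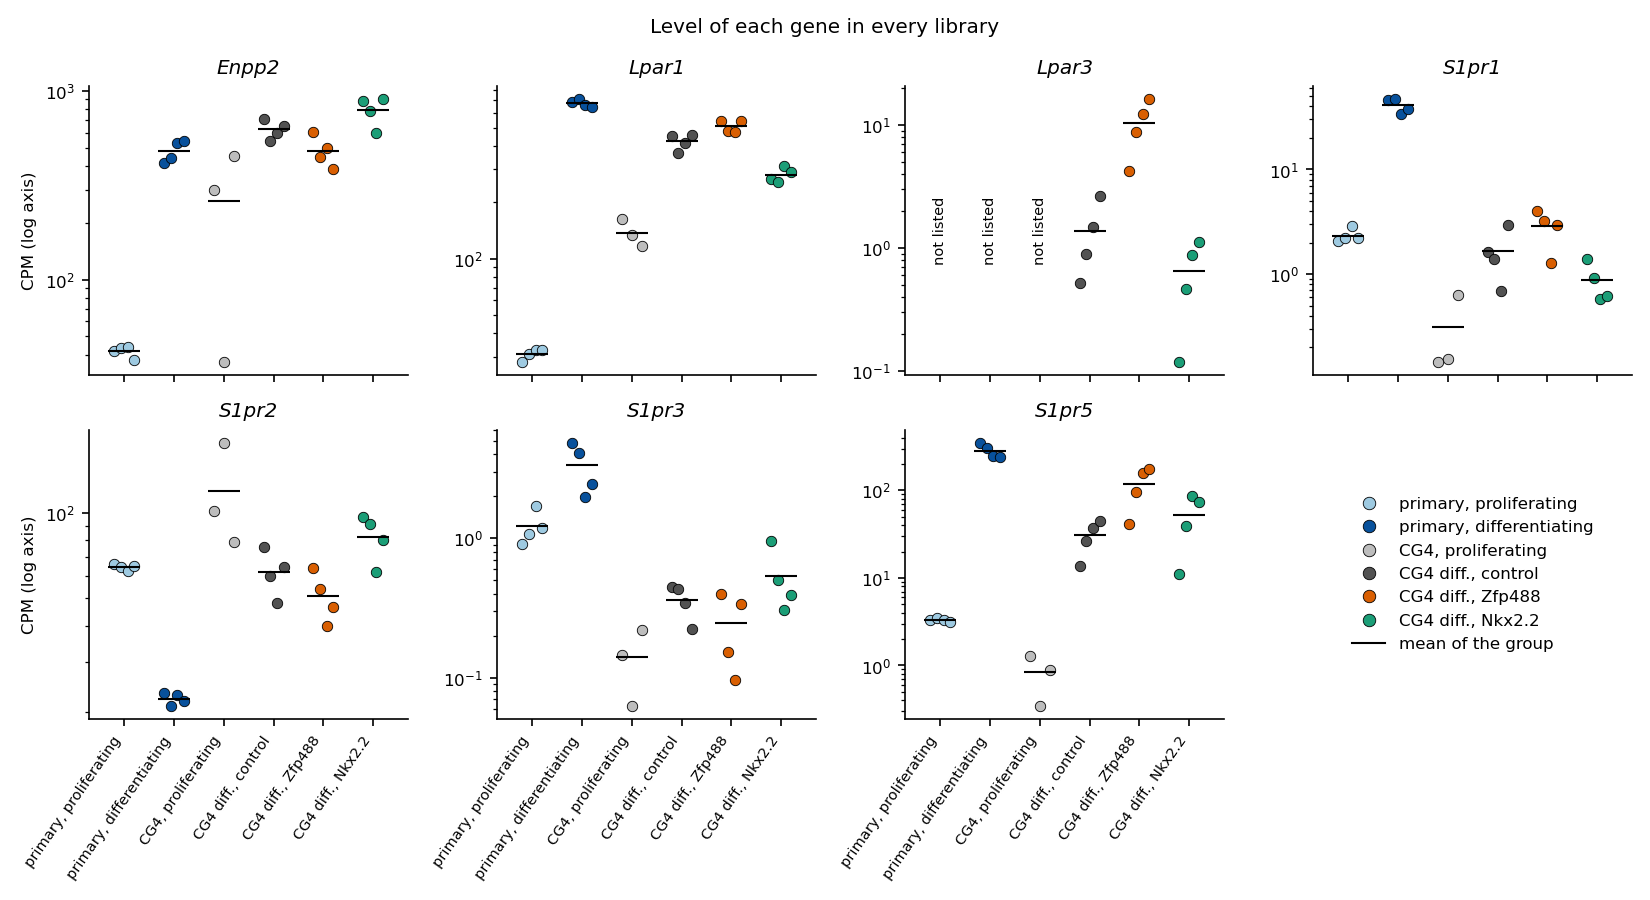
Level of each of the 7 genes in every library, as CPM on a log axis, with a line at each group's mean. For Lpar1 the 6 groups lie apart. S1pr1 and S1pr5 are highest and S1pr2 is lowest in differentiating primary cells, and 1 proliferating CG4 library lies far below the other 2 for Enpp2.

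Lpar1, the LPA receptor best known in oligodendrocytes, lay in ranges that did not overlap between neighbouring groups. How many of all genes lie apart in this way was not counted. It lay at 28.0, 31.0, 32.7 and 32.6 CPM in proliferating primary cells and 117 to 163 CPM in the 3 proliferating CG4 libraries. Among differentiating CG4 libraries it stood at 266, 256, 314 and 290.4 CPM with Nkx2.2, 453, 369, 413 and 457 in control, and 546, 481, 474 and 546 with Zfp488. Differentiating primary cells were highest, at 685, 712, 664 and 646 CPM. The spread within each group was small, with the highest library 1.10 to 1.40 times the lowest.

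Lpar3, a second LPA receptor, was a low gene whose level depended strongly on the factor. It was counted 25, 35, 65 and 129 times in the control libraries, 125, 364, 420 and 572 times with Zfp488, and 5, 20, 28 and 37 times with Nkx2.2. On the CPM scale of the 12 files, over their 32552 genes, this is 0.523, 0.889, 1.47 and 2.65 in control, 4.19, 8.81, 12.2 and 16.2 with Zfp488, and 0.118, 0.469, 0.877 and 1.12 with Nkx2.2. Every Zfp488 library lay above every control library, whereas control and Nkx2.2 overlapped.

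Of the S1P receptors, S1pr5 had the widest range. It lay at 3.29, 3.52, 3.34 and 3.14 CPM in proliferating primary cells and at 349, 302, 249 and 241 CPM in differentiating ones. Proliferating CG4 cells held 1.27, 0.344 and 0.898 CPM, differentiating control cells 13.6, 26.3, 37.6 and 44.7, Zfp488 cells 40.8, 97.1, 159 and 174, and Nkx2.2 cells 11.1, 39.5, 86.3 and 73.3. The 3 differentiating CG4 groups overlap, and all their libraries lie between the proliferating groups and the differentiating primary cells.

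S1pr1, at a lower count, was likewise highest in differentiating primary cells and lowest by mean in proliferating CG4 cells. By mean, control and Nkx2.2 cells lay below proliferating primary cells for S1pr1, unlike for S1pr5. Differentiating primary cells stood alone at 46.1, 46.9, 33.8 and 38.2 CPM, against 2.08 to 2.86 CPM in proliferating ones. Every CG4 library lay between 0.144 and 4.04 CPM, with 28 to 132 reads in control, 40 to 126 with Zfp488, 17 to 56 with Nkx2.2 and 5 to 26 in proliferating cells. Apart from differentiating primary cells, all neighbours in the order overlapped.

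S1pr2 ran the other way. It was lowest in differentiating primary cells, at 23.3, 21.0, 22.9 and 21.9 CPM, and lay at 65.8, 64.7, 62.6 and 64.9 CPM in proliferating ones. Proliferating CG4 libraries were highest by mean, at 102, 176 and 79.2 CPM. Differentiating CG4 cells held 76.1, 60.02, 48.1 and 64.4 CPM in control, 64.0, 53.8, 40.1 and 46.6 with Zfp488, and 96.5, 91.2, 61.7 and 79.9 with Nkx2.2. The groups other than differentiating primary cells overlapped with their neighbours.

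S1pr3 was near the limit of detection in CG4 cells, with 2 to 9 reads in proliferating libraries and 3 to 38 in differentiating ones. In primary cells it was counted 27 to 44 times when proliferating and 41 to 140 times when differentiating. Differentiating primary cells again lay above all others, at 4.84, 4.08, 1.98 and 2.46 CPM. Members of the close pairs of libraries fell together here. Libraries 1 and 2 were higher than 3 and 4 for Lpar1, S1pr1, S1pr3 and S1pr5, and lower for Enpp2. The summed astrocyte markers (6 of 7 measured) were also higher in libraries 1 and 2, at 2272 and 2232 CPM against 1192 and 1164. So were the sums of mature oligodendrocyte markers (101973 and 102023 against 91832 and 91716 CPM) and Schwann cell markers (206 and 215 against 161 and 162). Microglia and neuron sums were also higher there, while endothelial sums and those of fibroblasts and pericytes were lower. The part of these markers in these levels was not tested.

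Added Zfp488 went with more Lpar3 in differentiating CG4 cells. Lpar3 rose by 2.90 ± 0.59 on the log2 scale (SE, n = 4 and 4), or 7.47-fold, with an adjusted p of 0.0131 in edgeR's quasi-likelihood test. By its fitted rise it ranked 19 of the 14811 genes tested. It was the only one of the 7 genes called at an adjusted p under 0.05, where 9.04% of all genes tested were called. With any 1 library left out, its adjusted p ranged from 0.00698 to 0.0471.

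Of the other 6 genes, S1pr5, Lpar1 and S1pr2 were called when the replicate number was used as a block, that is, when each Zfp488 library was compared with the control library of the same number. With the block 4 of 7 genes were called, against 24.1% of all genes. S1pr5 differed by 1.96 ± 0.59 without the block (adjusted p = 0.0584) and by 1.88 ± 0.17 with it (adjusted p = 0.00011). In the pairs, the Zfp488 library held 3.01, 3.70, 4.22 and 3.89 times the control level of S1pr5. S1pr5 was also called without the block in DESeq2 (adjusted p = 0.0218), with only the 8 libraries compared (0.0373) and with no filter on low counts (0.0499), and Lpar1 in DESeq2 (0.0346). Without Zfp488 replicate 1 the unblocked adjusted p of S1pr5 was 0.0284, without Nkx2.2 replicate 1 it was 0.0232 and without Nkx2.2 replicate 3 it was 0.0499.

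Lpar1 differed by 0.29 ± 0.10 (adjusted p of 0.0846 unblocked and 0.0198 blocked), and was 1.15 to 1.30 times as high in all 4 pairs. S1pr2 differed by -0.27 ± 0.18 (adjusted p of 0.379 unblocked and 0.0136 blocked), and lay at 0.724 to 0.896 times the control in all 4 pairs. S1pr1 (0.79 ± 0.44, adjusted p of 0.294 unblocked and 0.0545 blocked), Enpp2 (-0.36 ± 0.16, 0.177 and 0.0579) and S1pr3 (-0.57 ± 0.47, 0.502 and 0.300) passed in neither. Over the 7 genes the median absolute log2 change was 0.57, against 0.18 over all genes tested. This median is the value of S1pr3, which had 3 to 11 reads with Zfp488 and 10 to 20 in control. The genes were chosen with earlier results of these data known, so the contrast is a description and no test. Mature oligodendrocyte markers (8 of 8 measured) summed to 17857 to 33458 CPM with Zfp488 and 10263 to 17889 CPM in control. Summed Schwann cell markers (6 of 7 measured) lay at 123 to 226 CPM with Zfp488 and 49.5 to 102 CPM in control, and fibroblast and pericyte markers (3 of 8) at 23.9 to 75.5 and 8.20 to 21.1 CPM. The endothelial sum (4 of 7), mostly Vwf, was lower with Zfp488, at 39.98 to 57.8 against 71.1 to 86.6 CPM. The progenitor sum (5 of 6) was lower too, at 2727 to 2814 against 2883 to 3154 CPM, but its genes split. Medians were lower with Zfp488 for Olig1 (223 against 437 CPM) and Olig2 (322 against 447). They were higher for Pdgfra (430 against 385), Sox10 (1806 against 1762) and Cspg4 (1.85 against 1.62). The part of these markers in the differences was not tested.

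**Figure D2:**
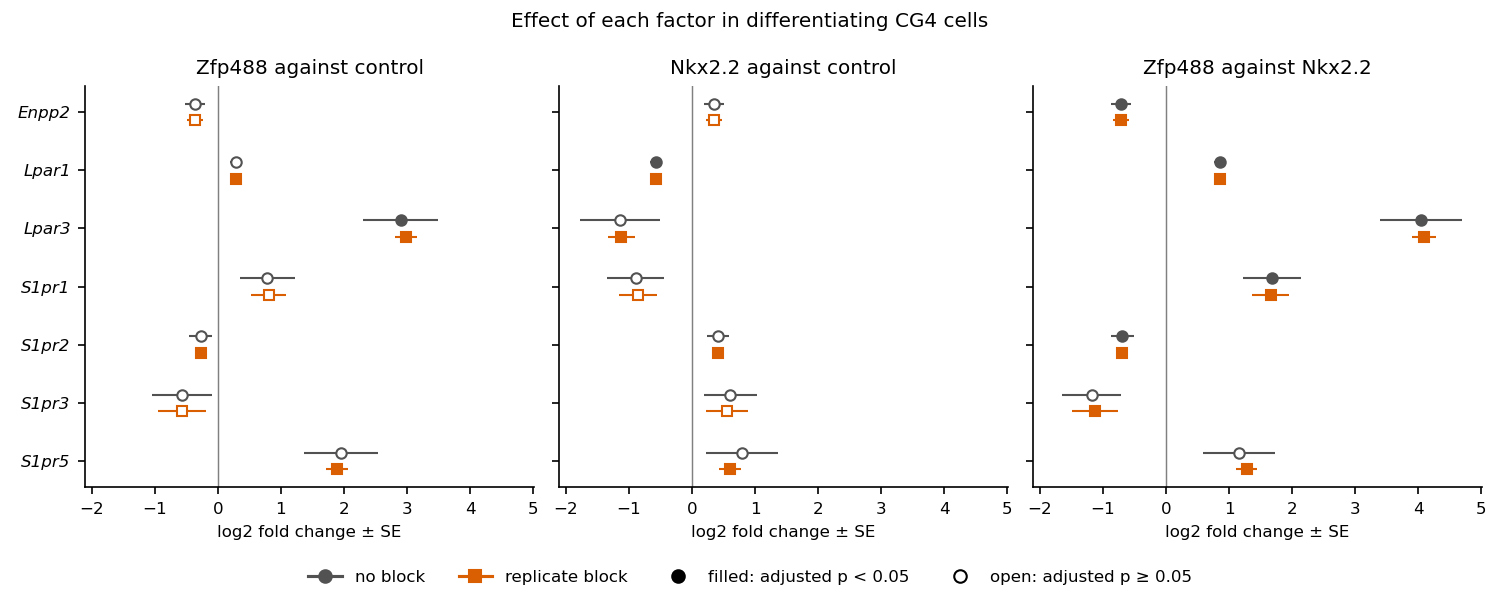
Log2 fold change ± SE of the 7 genes for each pair of differentiating CG4 groups, without the replicate block (circles) and with it (squares), filled where the adjusted p is under 0.05. Lpar3 has the largest change in each of the 3 comparisons, and the block narrows most bars.

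Nkx2.2 went with less Lpar1. The receptor fell by 0.57 ± 0.10 on the log2 scale (n = 4 and 4), to 282 ± 25.7 from 423 ± 40.8 CPM, with an adjusted p of 0.0024, and lay at 0.588 to 0.76 times the control in all 4 pairs. Its adjusted p ranged from 0.00165 to 0.01 with 1 library left out, and it was called under every other setting tried. It was the only one of the 7 genes called, against 10.6% of all genes. With the block 4 of 7 were called, against 26.2%.

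The 3 that passed only with the block were Lpar3, S1pr2 and S1pr5. Lpar3 differed by -1.14 ± 0.64 (adjusted p of 0.292 unblocked and 0.00317 blocked), from pairs in which the Nkx2.2 library held 0.225, 0.527, 0.597 and 0.421 times the control level. S1pr2 differed by 0.42 ± 0.18 (adjusted p of 0.161 unblocked and 0.00113 blocked), with 1.24 to 1.52 times the control level in all 4 pairs. S1pr5 differed by 0.79 ± 0.58 (adjusted p of 0.422 unblocked and 0.0244 blocked), with pairs at 0.821, 1.51, 2.29 and 1.64 times, so pair 1 ran against the others. Enpp2 (0.35 ± 0.16, adjusted p of 0.185 unblocked and 0.0642 blocked), S1pr1 (-0.89 ± 0.46, 0.248 and 0.0605) and S1pr3 (0.61 ± 0.43, 0.401 and 0.245) passed in neither. Summed mature oligodendrocyte markers overlapped the control here, at 6377 to 17458 CPM. Summed Schwann cell markers were higher with Nkx2.2, at 224 to 969 CPM against 49.5 to 102 in control, as were fibroblast and pericyte markers, at 36.3 to 129 against 8.20 to 21.1 CPM. The endothelial sum was lower, at 55.9 to 66.9 against 71.1 to 86.6 CPM, and was mostly Vwf (50.8 to 56.9 against 58.9 to 71.9). The part of these markers was not tested.

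The factors were then compared with each other. This comparison and those with control share libraries, so it is a test of their difference and no separate evidence. Lpar1, Lpar3 and S1pr1 were higher with Zfp488, and Enpp2 and S1pr2 were higher with Nkx2.2, giving 5 of 7 genes called against 25.3% of all genes. Lpar3 differed by 4.04 ± 0.65 on the log2 scale, or 16.5-fold (adjusted p = 0.000996), and ranked 10 among 14811 genes by its rise. Lpar1 differed by 0.86 ± 0.10, or 1.82-fold (adjusted p = 9.87e-05), and S1pr1 by 1.68 ± 0.46, or 3.20-fold (adjusted p = 0.0188). Without Nkx2.2 replicate 4 the adjusted p of S1pr1 was 0.0552.

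Enpp2 was 1.64-fold lower with Zfp488 than with Nkx2.2 (-0.71 ± 0.16, adjusted p = 0.0067), and S1pr2 1.61-fold lower (-0.69 ± 0.18, adjusted p = 0.0148). For both, the Zfp488 library lay below its partner in 4 of 4 pairs. S1pr3 (-1.18 ± 0.46, adjusted p of 0.0804 unblocked and 0.029 blocked) and S1pr5 (1.16 ± 0.58, 0.157 and 0.000189) passed only with the block, which called 7 of 7 genes against 42.4% of all genes. Without Nkx2.2 replicate 3, S1pr3 had an unblocked adjusted p of 0.0439. The median absolute log2 difference of the 7 genes was 1.16, against 0.26 over all genes tested. It is the value of S1pr5, which was not called without the block, and this contrast is likewise no test.

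For some of the genes, same-numbered libraries moved together across the 3 differentiating CG4 groups. For Lpar3 the order of the numbers was the same in each group, with number 1 lowest and number 4 highest. S1pr5 had its lowest value in number 1 in each group, and S1pr2 had its lowest in number 3. For Enpp2, Lpar1 and S1pr3 the number with the lowest value was not the same in all groups. The ratio of the highest to the lowest library within a group reached 9.48 for Lpar3 and 7.75 for S1pr5, both with Nkx2.2, and 1.24 for Lpar1 at most. Summed mature oligodendrocyte markers were likewise highest in number 3 of each group, at 17889 CPM in control, 33458 with Zfp488 and 17458 with Nkx2.2, and their part in this spread was not tested.

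**Figure D3:**
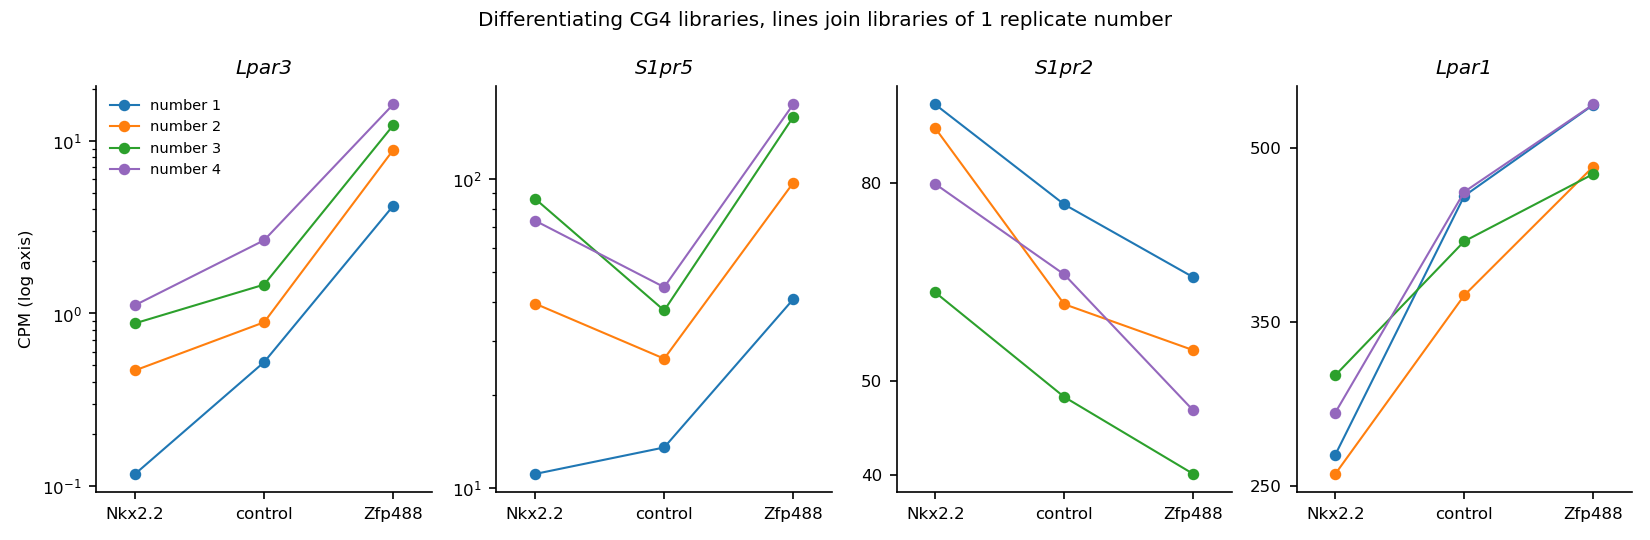
CPM on a log axis of 4 genes in the 12 differentiating CG4 libraries, with a line joining the libraries of 1 replicate number. The lines for Lpar3 do not cross, those for S1pr2 all go down from Nkx2.2 to Zfp488, and those for S1pr5 run nearly parallel from control to Zfp488, where the step is 3.01-fold to 4.22-fold.

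In primary oligodendroglia, 5 of the 6 genes measured rose with differentiation and 1 fell, where 41.5% of all genes rose and 43.3% fell. S1pr5 rose by 6.47 ± 0.14 on the log2 scale (n = 4 and 4), or 88.4-fold, and ranked 52 among 12310 genes by its rise (edgeR adjusted p = 7.55e-12). Lpar1 rose by 4.49 ± 0.06, or 22.4-fold (adjusted p = 3.66e-13), S1pr1 by 4.20 ± 0.13, or 18.4-fold (1.53e-10), Enpp2 by 3.58 ± 0.10, or 11.9-fold (6.71e-11), and S1pr3 by 1.55 ± 0.29, or 2.92-fold (0.000477). S1pr2 fell by 1.49 ± 0.05, to 0.355 times its proliferating level (1.22e-10).

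A call is common in this comparison, at 84.8% of all genes tested. All 6 genes were called here, and their median absolute log2 change was 3.89 against 0.73 over all genes, a description of genes chosen with earlier results known. Summed mature oligodendrocyte markers lay at 1320 to 1392 CPM in proliferating and 91716 to 102023 CPM in differentiating primary cells. Summed astrocyte markers lay at 180 to 192 CPM and at 1164 to 2272 CPM. Of these, Gfap lay at 4.05 to 4.62 CPM and at 639.8 to 1521 CPM, whereas Gja1 overlapped, at 97.0 to 106 and 48.9 to 113 CPM. Summed fibroblast and pericyte markers (3 of 8 measured) lay at 126 to 154 CPM and 9.81 to 20.2 CPM. Schwann cell markers lay at 41.7 to 45.1 and at 161 to 215 CPM, and neuron markers (6 of 7 measured) at 347 to 354 and at 216 to 226 CPM. Summed cell cycle markers (6 of 6 measured) lay at 1512 to 1585 CPM in proliferating and 483 to 511 CPM in differentiating primary cells. The 5 genes that rose did so beside the sums of mature oligodendrocyte, progenitor, astrocyte, Schwann cell and endothelial markers. S1pr2 fell beside the sums of cell cycle, microglia, neuron, and fibroblast and pericyte markers. The part of these markers was not tested.

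In CG4 cells, S1pr5, Lpar1, S1pr1 and S1pr3 rose between proliferating cells and differentiating control cells, and S1pr2 fell. S1pr5 rose by 5.18 ± 0.57 on the log2 scale (n = 4 and 3), or 36.4-fold (edgeR adjusted p = 0.000109). Lpar1 rose by 1.65 ± 0.15, or 3.13-fold (adjusted p = 4.19e-05), S1pr1 by 2.43 ± 0.69, or 5.39-fold (0.0143), and S1pr3 by 1.33 ± 0.50, or 2.52-fold (0.0442), on few reads. S1pr2 fell by 0.91 ± 0.27, to 0.533 times (0.0184). These are 5 of 6 genes called, against 65.8% of all genes. S1pr3 was not called without proliferating CG4 replicate 1 (adjusted p = 0.0858) or replicate 2 (0.104), with DESeq2 (0.0731), with the replicate block (0.103) or without the filter on low counts (0.0595). The rise of S1pr1 was 3.48 ± 0.72 without proliferating CG4 replicate 3 (adjusted p = 0.00475), and it was not called with the replicate block (0.0839). Without proliferating CG4 replicate 2, S1pr2 fell by 0.51 ± 0.19 (0.0475).

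Enpp2 differed by 1.29 ± 0.65 and was not called (adjusted p = 0.114). Without proliferating CG4 replicate 2, the library at 36.4 CPM, its difference was 0.77 with an adjusted p of 0.0109, and in DESeq2 it was called with all libraries (adjusted p = 0.0402). The summed mature oligodendrocyte markers lay at 1618 to 2673 CPM in proliferating and 10263 to 17889 CPM in control cells. Summed astrocyte markers lay at 58.0 to 135 CPM and at 1681 to 3123 CPM, endothelial markers (4 of 7 measured) at 8.54 to 23.5 CPM and at 71.1 to 86.6 CPM, and microglia markers at 1.03 to 2.68 CPM in both. In control cells the astrocyte sum was mostly Fgfr3 (763 to 1393 CPM) and Gfap (235 to 2141). Aldh1l1, Slc1a2 and Gja1 lay at only 0.246 to 3.16 CPM there. The endothelial sum was mostly Vwf (58.9 to 71.9 CPM), with Flt1 and Tek at 0.123 to 0.581 CPM. Schwann cell markers lay at 11.04 to 21.0 and at 49.5 to 102 CPM, and neuron markers at 99.0 to 134 and at 189.6 to 578 CPM. Fibroblast and pericyte markers (3 of 8 measured) were higher in control cells, at 1.92 to 5.51 and at 8.20 to 21.1 CPM. Cell cycle markers fell, as S1pr2 did, from 2683 to 2959 CPM in proliferating cells to 413 to 518 CPM in control. The part of these markers in the differences of Enpp2 and the receptors was not tested.

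**Figure D4:**
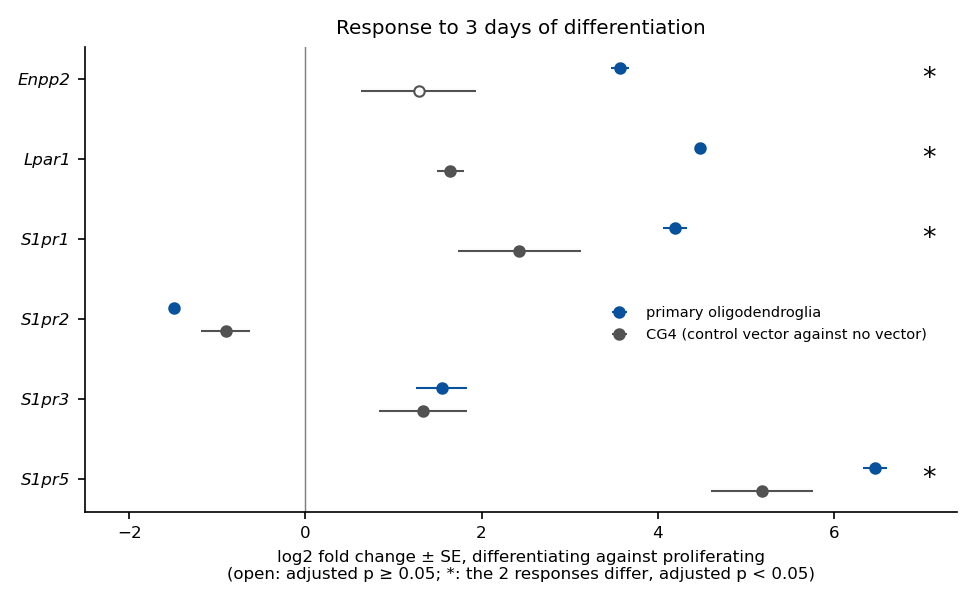
Log2 fold change ± SE between differentiating and proliferating cells for the 6 genes measured in both sources, filled where the adjusted p is under 0.05. Each point of CG4 lies nearer to 0 than that of primary cells, and a star marks the 4 genes whose responses differed.

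The difference between both differentiation responses was tested as an interaction. Lpar1 (-2.80 ± 0.15, edgeR adjusted p = 7.83e-10), Enpp2 (-2.24 ± 0.65, 0.00692), S1pr1 (-1.72 ± 0.64, 0.0262) and S1pr5 (-1.26 ± 0.52, 0.0434) rose less in CG4 than in primary cells. These are 4 of 6 genes, against 69.3% of all genes called in this test. S1pr2 (0.63 ± 0.28, adjusted p = 0.0596) and S1pr3 (-0.15 ± 0.68, 0.858) did not pass. The call of Lpar1 held with each library left out, with adjusted p from 4.02e-10 to 7.56e-09, and that of Enpp2 with 2.71e-08 to 0.0324. Without proliferating CG4 replicate 3 the difference of Enpp2 was -1.61 (0.0324).

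The calls of S1pr1 and S1pr5 were not as firm. S1pr1 fell short without proliferating CG4 replicate 3 (-0.67, adjusted p = 0.465). S1pr5 fell short when any 1 of 9 libraries was left out, namely proliferating CG4 replicate 1 (0.239) or 3 (0.0878), control replicate 2 (0.0656), differentiating primary replicate 1 (0.0742) or 2 (0.0624), or proliferating primary replicate 1 (0.0587), 2 (0.053), 3 (0.0571) or 4 (0.063). Neither was called with the close pairs of primary libraries summed (0.052 and 0.0712). S1pr2 passed without proliferating CG4 replicate 2 (1.02, adjusted p = 0.000221) and without control replicate 3 (0.74, 0.0297).

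Levels of the 6 genes were also compared directly between the sources, with medium and time matched. The vector between differentiating cells, and the read length between proliferating cells, cannot be told apart from the cell source. Between differentiating cells, CG4 control cells held less S1pr1 (-4.61 ± 0.40 on the log2 scale, 24.3-fold lower), S1pr5 (-3.22 ± 0.31, 9.30-fold), S1pr3 (-3.19 ± 0.36, 9.15-fold) and Lpar1 (-0.67 ± 0.10, 1.59-fold), and more S1pr2 (1.49 ± 0.20, 2.81-fold), with adjusted p of 2.83e-05 at most. These 5 of 6 calls stand against 73% of all genes. Enpp2 differed by 0.39 ± 0.44 (adjusted p = 0.444), and by 0.40 without proliferating CG4 replicate 2 (adjusted p = 0.0123), a library that enters this test only through the shared spread. Between proliferating cells, CG4 held more Enpp2 (2.63 ± 0.49), Lpar1 (2.13 ± 0.11) and S1pr2 (0.86 ± 0.20) and less S1pr3 (-3.04 ± 0.46), S1pr1 (-2.88 ± 0.50) and S1pr5 (-1.96 ± 0.42), with adjusted p of 0.00157 at most, which is 6 of 6 against 71.2%. Without proliferating CG4 replicate 3 these differences were 2.01 for Enpp2 and -3.92 for S1pr1, and without replicate 2 that of S1pr2 was 0.49, all called. Lpar1 lay above the primary level before differentiation and below it after. Summed mature oligodendrocyte markers lay at 91716 to 102023 CPM in differentiating primary and 10263 to 17889 in control cells. Summed astrocyte markers overlapped, but 4 genes were called lower in CG4 cells, among them Gja1 (1.67 to 3.16 against 48.9 to 113 CPM). Fgfr3 was higher (763 to 1393 against 115 to 129). Among proliferating cells, microglia markers lay at 355 to 371 CPM in primary and at most 1.88 in CG4 cells. The part of these markers was not tested.

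Other genes of the pathway were taken from lists. Of 10 other lysophospholipid receptors, 1 to 3 could be tested in a comparison. Lpar6, an LPA receptor of another family, rose with Zfp488 (0.61 ± 0.16, adjusted p = 0.0369), from 1.47 ± 0.23 to 2.23 ± 0.14 CPM. It fell with differentiation in primary cells by 1.27 ± 0.09 (7.78e-08) and in CG4 cells by 1.27 ± 0.27 (0.0038). P2ry10, a receptor for lysophosphatidylserine, rose in CG4 differentiation (2.27 ± 0.74, adjusted p = 0.025) at a level near 0, from 0.0724 ± 0.0722 to 0.372 ± 0.148 CPM.

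Of 20 genes tested that make or remove LPA, 1 rose with Zfp488, where 9.04% of all genes were called, and 5 were called with the block, against 24.1%. The gene that rose was Agpat2, which turns LPA into phosphatidic acid (0.64 ± 0.18, adjusted p = 0.0482). With Nkx2.2, 2 rose and 4 fell, against 10.6% of all genes called. Pld2, a phospholipase D, rose by 2.21 ± 0.23 (9.19e-05), from 1.71 ± 0.61 to 7.86 ± 1.06 CPM, whereas Pld1, its relative, fell by 0.45 ± 0.08 (0.00393). Plppr5, a phosphatase-related membrane protein, fell by 1.00 ± 0.17 (0.00247). Between the factors 6 were higher with Zfp488 and 2 lower, against 25.3% of all genes called. Plpp3, a phosphatase of LPA and S1P, was higher by 1.02 ± 0.15 (0.000582). The list's median log2 change lay between -0.14 and 0.13 in these 3 comparisons, beside -0.02 to -0.01 for all genes.

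In primary differentiation all 19 tested genes of this list were called, against 84.8% of all genes. Of these, 13 rose and 6 fell, against 41.5% and 43.3%, with a median of 0.42 beside -0.02 for all genes. Pld1 rose by 3.83 ± 0.06 (1.14e-12), Plppr5 by 3.04 ± 0.04 (5.6e-13) and Plpp3 by 1.72 ± 0.04 (8.45e-12). In CG4 cells 9 of 20 rose and 2 fell, against 65.8% of all genes called, with a median of 0.67 beside 0.01. Agpat4 rose by 2.34 ± 0.17 (1.3e-05), Plppr5 by 1.88 ± 0.24 (0.000254) and Plpp1 by 2.68 ± 0.43 (0.000744). The responses differed for 12 of 19, against 69.3% of all genes, and the smallest p was that of Gde1, a glycerophosphodiesterase (-2.70 ± 0.15, 1.02e-09).

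Of 13 tested genes of S1P metabolism and transport, 9 rose and 2 fell with differentiation in primary cells, against 41.5% and 43.3% of all genes, with a median of 0.83 beside -0.02 for all genes. Sphk1, a sphingosine kinase, rose by 4.61 ± 0.15 (1.79e-10), from 0.499 ± 0.104 to 12.1 ± 1.39 CPM. Asah1, the acid ceramidase that frees sphingosine, rose by 2.23 ± 0.06 (3.36e-11), and Cers2, a ceramide synthase, by 2.34 ± 0.08 (3.62e-10). In CG4 cells 7 of 13 rose and 1 fell, against 65.8% of all genes called, with a median of 1.15 beside 0.01. Sphk1 rose there by 5.53 ± 0.66 (0.000167), from 1.63 ± 1.31 to 75.2 ± 36.9 CPM, and Spns2, the S1P exporter, by 2.82 ± 0.30 (8.97e-05). With Zfp488 edgeR called 0 of 13, while 2 had an unadjusted p under 0.05 and DESeq2 called 2, and 9.04% of all genes were called by edgeR. With Nkx2.2 only Asah1 was called, against 10.6% of all genes, and it fell by 0.36 ± 0.09 (0.0206). With the block 3 of 13 were called, against 26.2%.

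Among 12 tested genes that answer the transcriptional regulators SRF or YAP, 1 rose with Zfp488 and 2 fell, against 9.04% of all genes called, and 7 were called with the block, against 24.1%. Cyr61, a secreted matrix protein, rose by 1.17 ± 0.29 (0.0281), and Amotl2 fell by 0.56 ± 0.14 (0.0289). With Nkx2.2 Ctgf, a secreted relative of Cyr61, rose by 3.23 ± 0.53 (0.00208), from 0.675 ± 0.356 to 6.27 ± 3.30 CPM, and Tagln by 0.86 ± 0.20 (0.0182). These were 2 of 12, against 10.6% of all genes. In primary differentiation 4 rose and 5 fell, against 84.8% of all genes called, and in CG4 cells 6 rose and 1 fell, against 65.8%. Cyr61 rose there by 3.73 ± 0.39 (7.98e-05).

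The relatives of autotaxin in the ENPP family, which cleave other phosphodiester bonds, rose where they were called with a factor. Enpp6, a choline phosphodiesterase of new oligodendrocytes, rose with Zfp488 (1.39 ± 0.38, adjusted p = 0.0415) and with Nkx2.2 (1.38 ± 0.38, 0.0376). The level was 18.6 ± 4.87 CPM in control, 48.5 ± 20.6 with Zfp488 and 48.0 ± 23.3 with Nkx2.2. Enpp3 rose with Zfp488 by 2.71 ± 0.42 (0.00364) and Enpp4 by 0.35 ± 0.08 (0.0187), making 3 of 5 tested with Zfp488, against 9.04% of all genes, and 1 of 5 with Nkx2.2, against 10.6%. In primary differentiation Enpp6 rose by 6.16 ± 0.17 (4.64e-11), from 6.29 ± 0.405 to 440 ± 99.7 CPM, and was 1 of 4 genes of 5 that rose, while 1 fell, against 84.8% of all genes called.

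The genes most like each member over the 23 libraries were sought by Pearson's r of log2 CPM among 10029 named genes that averaged 5 CPM or more. The libraries share groups and depth, so these values describe the groups as much as the genes. Lpar1 was most like Mapk3, a MAP kinase (r = 0.986), Serinc5 (0.977) and Rpe65 (0.976). Mapk3 averaged 116 CPM in proliferating and 467 CPM in differentiating primary cells, and 340, 389 and 279 CPM in control, Zfp488 and Nkx2.2 cells, the order that Lpar1 has. S1pr5 was most like Cdk18 (0.984), Tns1 (0.983) and Ctsl (0.981), and Cdk18 lay at 11.8 and 693 CPM in primary and at 89.97, 222 and 149 CPM in the same CG4 groups. Enpp2 was most like Abca8a (0.981), Gstm2 (0.974) and Acsl1 (0.973).

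S1pr2 was most like Morc3 (0.975), Akap8 (0.956) and Recql4 (0.955), which like S1pr2 are lowest in differentiating primary cells. S1pr1 was most like LOC306766 (0.966), Nubp2 (0.962) and Abhd4 (0.958), and S1pr3 most like Mfsd1 (0.958), Mocs1 (0.946) and Pbxip1 (0.937). Lpar3 was not compared, since it has no value in 11 of the 23 libraries.

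The authors' deposited table for Zfp488 gives Lpar3 a log2 fold change of 2.91 (adjusted p = 1.84e-07), S1pr5 1.96 (0.00481) and Lpar1 0.29 (0.0453), which are under 0.05. In the authors' deposited table for Nkx2.2 the only such gene is Lpar1, at -0.57 (5.45e-06). For the other genes the authors' deposited tables give adjusted p from 0.12 to 0.585. Signs were as in edgeR for all 7 genes in both.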

How the data were processed

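RNA was sequenced in 23 rat libraries, and the authors deposited raw read counts per gene. Per the submitters' processing notes, reads passed through Trimmomatic (version 0.36), STAR (2.5.2b) and featureCounts from Subread (1.5.2), on the build rn6. Annotation release, strand setting and multi-mapping rule were not given in the sources used here. Values of overlapping genes are therefore uncertain. The authors' deposited tables also hold log2 fold changes, p-values and a normalized signal, and were used for gene names and the closing comparison of the results. They name 12432 of the 15219 shared identifiers, and the other 2787 entered no list.

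The test was edgeR's quasi-likelihood test (edgeR 4.0.16, R 4.3.3) with TMM scaling and filterByExpr, two-sided and Benjamini-Hochberg adjusted over all genes tested, and a gene was called at an adjusted p under 0.05. Separate fits held the 12 differentiating CG4 libraries, the 8 primary libraries, the 7 control and proliferating CG4 libraries, and, for the interaction and the comparisons of sources, these 15 primary, control and proliferating CG4 libraries together. Fitted fold changes use a prior count of 0.125. SE is the log2 fold change divided by the square root of F. Titles call the libraries biological replicates, and p-values measure only their spread. Alternatives were RLE size factors, no filter, DESeq2 1.42.0, a block by replicate number, only genes in all files, only the libraries compared, summed close pairs and leaving out each library. Same-numbered differentiating CG4 libraries deviated together (r of 0.19 to 0.71 for Zfp488 and control, 0.16 to 0.563 for Nkx2.2 and control, 0.284 to 0.573 between factors), least in number 4. No label says what a number marks, so the block is given only as an alternative. On simulated counts with 200 genes changed by a log2 of 1, 82.5% were recovered for Zfp488 against control (14456 genes), 97% for primary (12021), 38.5% for CG4 differentiation (11716) and 58% for the interaction (12516). Of the genes called there, 4.07%, 5.83%, 7.23% and 1.69% were false, in the same order. The simulated libraries were independent and few genes changed, unlike in these data, so these shares do not gauge recovery here.

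The members and gene lists were chosen with earlier results of these data known. All members held are named, with up to 3 genes of each list per comparison by smallest adjusted p, of which the text gives a part, and the 3 genes of highest r (log2 CPM, prior count 2) for members with a mean of at least 1 CPM. Promoter sequences are RefSeq's for GRCr8, with the 50 bases after each start left out; of 7 members, 5 matched. Gene lengths were not used, so levels are not compared between genes. A list of signalling genes downstream of the receptors is not reported here.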

Additional observations from a re-analysis of the deposited data

Results flagged for a closer look

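The response to differentiation differed between CG4 and primary cells in an interaction test for 4 of the 6 genes measured in both, where 69.3% of all genes tested were called (edgeR). The differences, CG4 minus primary on the log2 scale, were -2.80 for Lpar1, -2.24 for Enpp2, -1.72 for S1pr1 and -1.26 for S1pr5. Vector, read length and gene list go with the CG4 groups and cannot be told apart from the cell source. In no group of 4 libraries did 1 library of a member stand apart by Dixon's test, in 33 groups tested. Groups of 3, among them the proliferating CG4 libraries with the wide range of Enpp2, were not tested.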

How the results depend on the processing

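Of the members' log2 fold changes, 238 kept their direction and side of the threshold under other settings, 15 became called and 8 ceased to be. With 1 library left out these were 585, 8 and 13, and 3 changed sign. The sign changed only for the interaction of S1pr3 (-0.15 with all libraries, and -0.47 to 0.26 with 1 left out), to 0.03 without control replicate 4, 0.09 without differentiating primary replicate 1 and 0.26 without proliferating CG4 replicate 3. The cause was not tested.

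The members called for Zfp488 against control were 1 in the reported fit, 2 with no filter and with only the 8 libraries compared, 3 with DESeq2, 4 with the replicate block, and 0 with only genes in all files, a set that lacks Lpar3. The genes called were 1339, with 2112 in DESeq2 and 3576 with the block. They were 1118 with no filter, 1089 with only the 8 libraries compared and 1243 with only genes in all files. For Nkx2.2 against control the block called 4 members and 3876 genes, against 1 and 1567, and between the factors it called 6276 genes against 3741. In the CG4 differentiation comparison, replicate numbers do not pair libraries (r of -0.13 to 0.0449). There the replicate block, which leaves out control replicate 4, called 3 members against 5. Of all genes it called 6556 of 12355, against 8213 of 12486 without it. Enpp2 lost its interaction call with the block (adjusted p = 0.0725), which called 7945 of 13125 genes there, against 9146 of 13207. In primary cells (r of -0.0443 to 0.103) it called 10413 genes against 10439, and it changed no other call of a member. With close pairs of primary libraries summed, 2 members had a called interaction, against 4. Of all genes, 8606 of 13523 did, against 9146 of 13207. With RLE size factors the interaction of S1pr5 was not called (0.0509) and that of S1pr2 was (0.0485), as it was in DESeq2 (0.0432).

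With 1 library left out, members called ranged from 1 to 2 for Zfp488, 1 to 1 for Nkx2.2, 4 to 6 between the factors, 6 to 6 in primary and 4 to 5 in CG4 differentiation, 2 to 5 for the interaction, and 5 to 6 and 6 to 6 between differentiating and proliferating sources. Genes called ranged in the same order from 458 to 1604, 924 to 2302, 2585 to 4636, 10186 to 10448, 7360 to 8424, 8789 to 9545, 9134 to 10213 and 8932 to 9761. For Zfp488 the count moved by over 1.5 times without Zfp488 replicate 2 (620) or 4 (458) or control replicate 1 (877), 2 (800) or 3 (669), and for Nkx2.2 without Nkx2.2 replicate 2 (974) or 4 (924).

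S1pr3 with 2 to 38 reads in CG4 libraries, and Lpar3 with 5 to 37 under Nkx2.2, limit what can be seen of these genes, and 3 proliferating CG4 libraries give the wide errors of that comparison.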
